A study of Homo sapiens with 6 samples.

Results

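The genes of G2, the spindle and mitosis were examined in THP1 cells exposed for 6 h to Withaferin A (WFA), a steroidal lactone from Withania somnifera, or to its vehicle DMSO. The set holds 54 genes out of 26485 in the deposited counts, listed by symbol for their role in cell division, and the list was drawn up when earlier results of these data were known. THP1 is a human acute monocytic leukemia cell line. The study contains 6 RNA-seq libraries, 3 with DMSO and 3 with WFA, from 3 independent experiments. A DMSO and a WFA library with the same replicate number and the same number code in their labels were taken as 1 experiment. The sample labels give the WFA concentration as 1 mM and the methods of the study as 1 μM. Being a single line, THP1 stands for no other leukemia or normal cell.

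Cells enter mitosis when CDK1, bound to cyclin A or cyclin B, is freed from inhibition by CDC25 phosphatases. Polo-like and Aurora kinases and kinesin motors then build the spindle, kinetochores attach chromosomes to it, and the spindle checkpoint holds back the anaphase-promoting complex (APC/C) until attachment is complete. Most genes of this machinery are transcribed late in the cell cycle, under the MuvB complex with B-MYB and FOXM1, and their RNA is low in cells that do not divide. Because RNA was taken from whole cultures, fewer cells in G2 and mitosis and less RNA per such cell cannot be told apart in these data. The authors also examined the cell cycle after the same exposure time. They report that WFA had not altered it by then and that changes appeared only with longer exposure. Those cell cycle measurements were not part of the data used here.

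Total counts lay between 11006035 and 13872810 per library, and 12854 genes passed the filter on low counts. Levels are given as CPM, the count divided by the TMM-scaled size of its library. The 9 monocytic leukemia markers checked, among them LYZ, CD33 and SPI1, summed to between 3900 and 4870 CPM in every library, against at most 4.83 CPM for 6 T, B and NK cell markers and at most 0.805 CPM for 5 erythroid and megakaryocyte markers, 4 of which had no count. A list of 6 epithelial and fibroblast markers had 0.844 to 1.42 CPM with DMSO and 9.31 to 12.7 CPM with WFA. Nearly all of that was COL1A1, at 0.211 to 0.833 CPM with DMSO and 8.54 to 12.6 CPM with WFA, while KRT5 had no count and EPCAM at most 0.245 CPM. The part of these transcripts in the results was not tested.

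Most members were lower after WFA, by a modest amount. Of the 54 members, 53 passed the filter, and 39 of them fell and 5 rose by the quasi-likelihood test of edgeR, with p-values adjusted over all tested genes (Benjamini-Hochberg) and called under 0.05. Across all tested genes, 24.7% were lower and 25.8% higher at that threshold, so the members were lower at 73.6% against 24.7%. The median log2 fold change was -0.49 over the members and 0.02 over all tested genes, and the members ran from -1.23 for ESPL1 to 0.63 for CDC25B. Only 4 members, ESPL1, NCAPH, KIF20A and MAD2L1, fell by more than 2-fold, where 5.2% of all tested genes did. The member left out by the filter was SPC25, a subunit of the NDC80 complex, with counts of 12, 5 and 11 with DMSO and 5, 9 and 8 with WFA.

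The members summed to 7359, 7615 and 8992 CPM in DMSO replicates 1, 2 and 3 and to 5372, 5499 and 5872 CPM in the WFA replicates. The groups did not overlap, and the WFA mean of 5580 ± 260 (SD, n = 3) was 69.9% of the DMSO mean of 7990 ± 878 (SD, n = 3). For single genes, each WFA library was below each DMSO library in 39 of the 53 members, against 28.5% of all tested genes, and 38 of these were among those called lower. In the other direction the groups were apart for 5 members, all of them called higher, against 29.6% of all tested genes. In the 3 experiments taken one by one, the median log2 difference between WFA and DMSO was -0.51, -0.48 and -0.62, and 45 members were lower with WFA in every experiment. DMSO replicate 3 stood apart from the other DMSO libraries, since 48 of the 53 members had their highest DMSO level there. WFA replicate 3 leaned the same way, with the highest WFA level in 32 of the 53 members. When DMSO replicate 3 alone was left out, 35 members were called lower and the median was -0.43. CCNB2, AURKB, INCENP and PRC1 then lost the call.

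**Figure D1:**
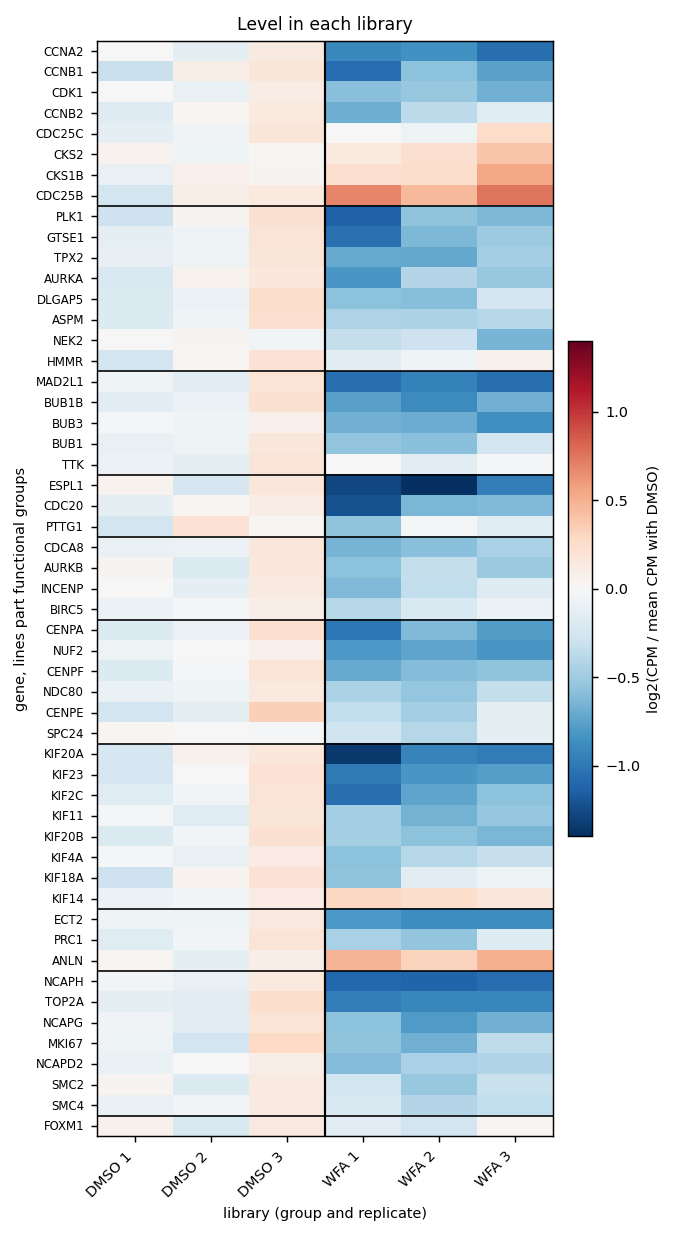
Level of each tested member in each of the 6 libraries, as the log2 ratio of its CPM to its mean CPM with DMSO (color scale), with genes in rows grouped by function and libraries in columns. Most rows are blue in all 3 WFA columns, CDC25B, CKS1B, CKS2, KIF14 and ANLN are red there, and the DMSO 3 column is slightly redder than the other DMSO columns in 48 of 53 rows.

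Per kilobase of merged exons in GENCODE 29, CDC20 had the highest mean level of the members with DMSO, 296 RPKM, followed by TOP2A with 158 and SMC4 with 116. The lowest were CDC25B with 3.5, SPC24 with 3.63 and ESPL1 with 3.95 RPKM, and the median was 30.3. Across the 53 members the log2 fold change was only weakly related to this level (Pearson's r = -0.20, Spearman's rho = -0.17) and to the genomic span of the gene (r = 0.01, rho = 0.09). These describe 53 genes measured in the same libraries, which are not independent replicates.

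The genes of the CDK1 engine moved in opposite directions. Of 8 genes, 4 fell, 3 rose and 1 was not called, with a median log2 fold change of -0.16 that lay between -0.27 without WFA replicate 3 and -0.0799 without DMSO replicate 3. CCNA2, which encodes cyclin A2, had 162, 150 and 178 CPM with DMSO and 87.2, 90.8 and 78.7 with WFA. Its highest WFA library was well below its lowest DMSO library, with a log2 fold change of -0.93 (SE, the standard error, 0.09, edgeR adjusted p = 1.11e-06). CDK1 itself had 102, 95 and 110 CPM with DMSO and 68.1, 70.7 and 63.9 with WFA, which also did not overlap (log2 fold change -0.60, SE 0.09, edgeR adjusted p = 5.39e-05). The B-type cyclins that activate it fell too, CCNB1 by 0.78 and CCNB2 by 0.40 on the log2 scale. For CCNB2 the groups touched, with 81.7 CPM in the lowest DMSO library and 82 in the highest WFA library, and its edgeR adjusted p-value rose from 0.0127 to 0.0619 without DMSO replicate 3 and to 0.0646 without WFA replicate 1.

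The phosphatase and adaptor genes of this group did not follow the cyclins. CDC25B, whose product removes inhibitory phosphates from CDK1, had 11.6, 14.8 and 15.2 CPM with DMSO and 22.3, 19 and 23.4 with WFA. Every WFA library exceeded every DMSO library, and the rise of 0.63 on the log2 scale was the largest of any member (SE 0.14, edgeR adjusted p = 0.00155). CDC25C, a phosphatase acting on the same sites, had 16.9 to 20.8 CPM with DMSO and 17.6 to 22.1 with WFA and was not called, with a log2 fold change of 0.07 and a 95% interval from -0.21 to 0.36. In GENCODE 29, 10.7% of the exon bases of CDC25C also lie in FAM53C. CKS1B and CKS2 encode small proteins that bind CDK complexes and help them reach their substrates. CKS1B had 29.5, 33.2 and 32.5 CPM with DMSO and 37.2, 37.6 and 46.2 with WFA, and CKS2 had 52.7, 49 and 51.5 against 56.3, 59.6 and 66.9. Neither gene's groups overlapped, and the log2 fold changes were 0.35 (SE 0.11, edgeR adjusted p = 0.0178) and 0.25 (SE 0.09, edgeR adjusted p = 0.0361).

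The rises of the 2 CKS genes were less secure than that of CDC25B. Scaling by total counts instead of TMM made them 0.26 (edgeR adjusted p = 0.0681) and 0.17 (edgeR adjusted p = 0.166), past the threshold in neither case. CKS1B also lost the call without DMSO replicate 1 (edgeR adjusted p = 0.0834) and without WFA replicate 3 (edgeR adjusted p = 0.0943). CKS2 lost it when any DMSO library, WFA replicate 2 or WFA replicate 3 was left out, with edgeR adjusted p-values between 0.0521 and 0.144. It also lost the call without the low-count filter (edgeR adjusted p = 0.0618). DESeq2 did not call CKS2 in its Wald test (adjusted p = 0.0888) or with the replicate number as a block (adjusted p = 0.102). GENCODE 29 lists 6 pseudogenes named after CKS1B, with which reads could be shared. In all, 12 members have such pseudogenes, the others being CCNB2, AURKA, NEK2, DLGAP5, BUB1, BUB3, CDC20, MKI67, NCAPD2, NCAPG and SMC4, all called lower.

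Among the spindle assembly factors and kinases, 7 of 8 genes fell and none rose, with a median log2 fold change of -0.52. TPX2, which activates Aurora A and promotes microtubule growth around chromosomes, had 252, 260 and 308 CPM with DMSO and 167, 166 and 197 with WFA. It fell by 0.63 on the log2 scale (SE 0.10, edgeR adjusted p = 0.000114). GTSE1, a microtubule-binding protein of G2 and mitosis, had 59.2, 62.4 and 73.4 CPM with DMSO and 31.6, 42 and 45.7 with WFA, a log2 fold change of -0.71 (SE 0.13, edgeR adjusted p = 0.000311). The groups were apart for both genes. PLK1 and AURKA, the kinases that drive centrosome maturation and spindle formation, had log2 fold changes of -0.75 and -0.57, while NEK2, ASPM and DLGAP5 lay between -0.47 and -0.41. HMMR, a spindle protein that is also known as a hyaluronan receptor, was the exception. It had 135 to 185 CPM with DMSO and 145 to 167 CPM with WFA, with a log2 fold change of -0.05 and a 95% interval from -0.28 to 0.18 (edgeR adjusted p = 0.741).

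In the spindle checkpoint, 4 of 5 genes fell, with a median log2 fold change of -0.74. MAD2L1 encodes MAD2, which binds and inactivates CDC20 while attachment is incomplete. It had 106, 99.3 and 127 CPM with DMSO and 53.3, 57.4 and 53.1 with WFA, with every WFA library far below every DMSO library. Its log2 fold change was -1.02 (SE 0.10, edgeR adjusted p = 1e-06). BUB3, which brings BUB1 and BUBR1 to kinetochores, had 131, 127 and 139 CPM with DMSO and 83.2, 81.6 and 72.9 with WFA (log2 fold change -0.74, SE 0.09, edgeR adjusted p = 5.77e-06). BUB1B and BUB1 fell by 0.77 and 0.46 on the log2 scale. TTK, the kinase that starts checkpoint signaling, had 134 to 165 CPM with DMSO and 131 to 146 with WFA. It was not called, with a log2 fold change of -0.06 and a 95% interval from -0.26 to 0.14.

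ESPL1 and CDC20 act at the onset of anaphase, and both fell. ESPL1 encodes separase, the protease that cuts cohesin, and it had the largest fall of all members. It stood at 27.3, 22.3 and 29.3 CPM with DMSO and 10.9, 9.42 and 13.5 with WFA, with no overlap (log2 fold change -1.23, SE 0.15, edgeR adjusted p = 9.97e-06). CDC20, the APC/C activator that the checkpoint restrains, had 490, 550 and 583 CPM with DMSO and 232, 348 and 351 with WFA. WFA replicate 1 was the lowest of these, and the log2 fold change was -0.80 (SE 0.13, edgeR adjusted p = 0.000164). PTTG1, or securin, holds separase inactive until anaphase. It had 44.3, 61 and 53.7 CPM with DMSO and 35.9, 52 and 47.1 with WFA, which overlapped although the WFA library was the lower one in each experiment. Its log2 fold change of -0.24 was not called (SE 0.14, edgeR adjusted p = 0.171), but was with the replicate block, a fit that compares the libraries within each experiment (edgeR adjusted p = 0.0193). DESeq2 with that block did not call it (adjusted p = 0.0583), and its log2 fold change was -0.14 without DMSO replicate 2 (edgeR adjusted p = 0.48) and -0.09 without WFA replicate 1 (edgeR adjusted p = 0.575).

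The chromosomal passenger complex corrects faulty attachments and later guides cytokinesis. Of its 4 genes, 3 fell, with a median log2 fold change of -0.42 for the complex. CDCA8, or borealin, had 72.4, 73.1 and 85.9 CPM with DMSO and 49.3, 51.3 and 56.5 with WFA (log2 fold change -0.56, SE 0.10, edgeR adjusted p = 0.000237). AURKB, its kinase, had 15, 12.6 and 16.1 CPM with DMSO and 9.8, 11.6 and 10.1 with WFA (log2 fold change -0.47, SE 0.15, edgeR adjusted p = 0.0141). Neither gene's groups overlapped, but AURKB lost the call without DMSO replicate 3 (edgeR adjusted p = 0.0616). The scaffold INCENP fell by 0.37 on the log2 scale (edgeR adjusted p = 0.0153), and lost the call without DMSO replicate 3 (edgeR adjusted p = 0.0703) and without WFA replicate 1 (edgeR adjusted p = 0.0714). BIRC5, or survivin, had 110 to 124 CPM with DMSO and 87.9 to 110 with WFA. It was not called (log2 fold change -0.23, SE 0.10, edgeR adjusted p = 0.06), but passed with the replicate block (edgeR adjusted p = 0.0105), under total-count scaling (edgeR adjusted p = 0.0166) and without WFA replicate 3 (edgeR adjusted p = 0.021). It also passed in DESeq2 with the block (adjusted p = 0.024) but not in DESeq2's Wald test without it (adjusted p = 0.0552). Further passes came without the low-count filter (edgeR adjusted p = 0.0409) and with DESeq2 size factors in edgeR (edgeR adjusted p = 0.0499). Without WFA replicate 1 its log2 fold change was -0.15 (edgeR adjusted p = 0.226), and without DMSO replicate 3 it was -0.18 (edgeR adjusted p = 0.186).

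Of the 6 tested centromere and kinetochore genes, 4 fell and none rose, with a median log2 fold change of -0.53. NUF2 and NDC80 pair in the complex that grips microtubules. NUF2 had 88.8, 93.7 and 98 CPM with DMSO and 53.6, 56.2 and 53 with WFA, a wide gap against the spread within either group (log2 fold change -0.78, SE 0.09, edgeR adjusted p = 2.74e-06). NDC80 fell by 0.44 on the log2 scale. SPC24, of the other end of the same complex, had 8.25 to 8.58 CPM with DMSO and 6.36 to 7.72 with WFA. These did not overlap, yet the log2 fold change of -0.26 was not called (SE 0.16, edgeR adjusted p = 0.181). CENPF, a large protein of the outer kinetochore, had 431, 485 and 560 CPM with DMSO and 302, 323 and 334 with WFA (log2 fold change -0.62, SE 0.10, edgeR adjusted p = 0.000133), and CENPA, the histone H3 variant of centromeres, fell by 0.79.

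The kinesin-like motor CENPE gave different answers in different fits. Its DMSO levels were 153, 168 and 233 CPM, the widest spread relative to the mean of any tested member, and its WFA levels were 146, 133 and 168 CPM. With a log2 fold change of -0.31 it was not called (SE 0.14, edgeR adjusted p = 0.0684). It passed with the replicate block (edgeR adjusted p = 0.000621), under total-count scaling (edgeR adjusted p = 0.0279), and without DMSO replicate 1, DMSO replicate 2 or WFA replicate 3 (edgeR adjusted p = 0.0208, 0.0397 and 0.0351). It also passed without the low-count filter (edgeR adjusted p = 0.00495). DESeq2 called it in its Wald test (adjusted p = 0.0476) and with the block (adjusted p = 0.00573). Without DMSO replicate 3 its log2 fold change was -0.11 (edgeR adjusted p = 0.434).

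Of 8 kinesin genes, 6 fell and 1 rose, with a median log2 fold change of -0.56. KIF20A, a motor of the central spindle needed for cytokinesis, had 57.3, 70 and 74.6 CPM with DMSO and 26.3, 35.2 and 34.1 with WFA (log2 fold change -1.08, SE 0.13, edgeR adjusted p = 5.66e-06). KIF23, the motor subunit of centralspindlin, had 79.6, 93.3 and 108 CPM with DMSO and 47, 53.2 and 54.7 with WFA (log2 fold change -0.86, SE 0.11, edgeR adjusted p = 1.56e-05). Both were apart in all libraries. KIF2C, which takes microtubules apart at kinetochores, fell by 0.77 on the log2 scale, and KIF11, the motor that pushes spindle poles apart, by 0.56. KIF20B and KIF4A had log2 fold changes of -0.56 and -0.43. KIF18A, which shortens kinetochore microtubules, had 27 to 37.9 CPM with DMSO and 22.5 to 31.4 with WFA and was not called (log2 fold change -0.25, SE 0.15, edgeR adjusted p = 0.171), but was with the replicate block (edgeR adjusted p = 0.0325) and without DMSO replicate 1 (edgeR adjusted p = 0.0495). DESeq2 with the same block did not call it (adjusted p = 0.102), and its log2 fold change was -0.14 without DMSO replicate 3 (edgeR adjusted p = 0.502) and -0.11 without WFA replicate 1 (edgeR adjusted p = 0.54).

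KIF14, which binds PRC1 and citron kinase in the midbody, went the other way from these motors. It had 84.5, 86.7 and 96.7 CPM with DMSO and 110, 106 and 99.9 with WFA. The groups were apart by a small margin, and the log2 fold change was 0.24 (SE 0.09, edgeR adjusted p = 0.0339). The call was lost under total-count scaling (edgeR adjusted p = 0.181) and without DMSO replicate 1, DMSO replicate 2, WFA replicate 1 or WFA replicate 2, with edgeR adjusted p-values between 0.0703 and 0.146. It was also lost without the low-count filter (edgeR adjusted p = 0.0628). DESeq2 did not call KIF14 in its Wald test (adjusted p = 0.082) or with the replicate block (adjusted p = 0.0905).

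The 3 cytokinesis genes split as well, with 2 lower, 1 higher and a median log2 fold change of -0.38. ECT2, the exchange factor that activates RhoA at the division plane, had 59.4, 59 and 68 CPM with DMSO and 35.6, 34.1 and 34.1 with WFA (log2 fold change -0.84, SE 0.10, edgeR adjusted p = 4.27e-06). PRC1, which bundles the microtubules of the central spindle, had 138, 151 and 177 CPM with DMSO and 114, 106 and 137 with WFA. Its log2 fold change of -0.38 (SE 0.11, edgeR adjusted p = 0.00965) was not called without DMSO replicate 3 (edgeR adjusted p = 0.0554). In GENCODE 29, 65.2% of its exon bases also lie in AC068831.7, on the same strand, or PRC1-AS1, on the opposite one, and libraries of this kind carry no strand, so its counts are uncertain.

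ANLN encodes anillin, the scaffold that links actin, myosin and RhoA in the cleavage furrow, and it rose while ECT2 fell. It had 173, 155 and 181 CPM with DMSO and 236, 210 and 240 with WFA. The lowest WFA library was above the highest DMSO library, and the log2 difference was 0.45, 0.44 and 0.41 in the 3 experiments. Its log2 fold change was 0.43 (SE 0.09, edgeR adjusted p = 0.0011). ANLN and CDC25B were the 2 members of the 5 called higher that passed the threshold in each of the 13 other fits, and CKS1B, CKS2 and KIF14 did not.

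All 7 genes of condensin and chromosome structure fell, with a median log2 fold change of -0.52. NCAPH, the kleisin subunit that closes the condensin I ring, had 81.8, 77.9 and 91.9 CPM with DMSO and 39.1, 38.4 and 40.1 with WFA (log2 fold change -1.10, SE 0.09, edgeR adjusted p = 2.3e-07). Its p-value was the smallest of any member. TOP2A, the topoisomerase that untangles sister chromatids, had 829, 820 and 1084 CPM with DMSO and 465, 483 and 483 with WFA (log2 fold change -0.93, SE 0.11, edgeR adjusted p = 6.19e-06). No WFA library of either gene came near its DMSO libraries. The other subunits of condensin I, NCAPG and NCAPD2, had log2 fold changes of -0.68 and -0.49, and the ATPase subunits SMC2 and SMC4, which condensin I shares with condensin II, of -0.36 and -0.33. SMC4 had the weakest call of the group, at 710, 736 and 822 CPM with DMSO and 649, 568 and 594 with WFA (SE 0.10, edgeR adjusted p = 0.0101). Other genes cover 35% of the exon bases of NCAPG and 27.4% of those of SMC4. MKI67, the proliferation marker Ki-67 that coats mitotic chromosomes, fell by 0.52 on the log2 scale.

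FOXM1, the transcription factor that acts with MuvB on many of these genes, had 79.5, 66 and 83.2 CPM with DMSO and 68.5, 63.3 and 77.8 with WFA. The groups overlapped, and the log2 fold change of -0.13 had a 95% interval from -0.36 to 0.10 (edgeR adjusted p = 0.339). Whether any functional group differed from another in its response was not tested.

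**Figure D2:**
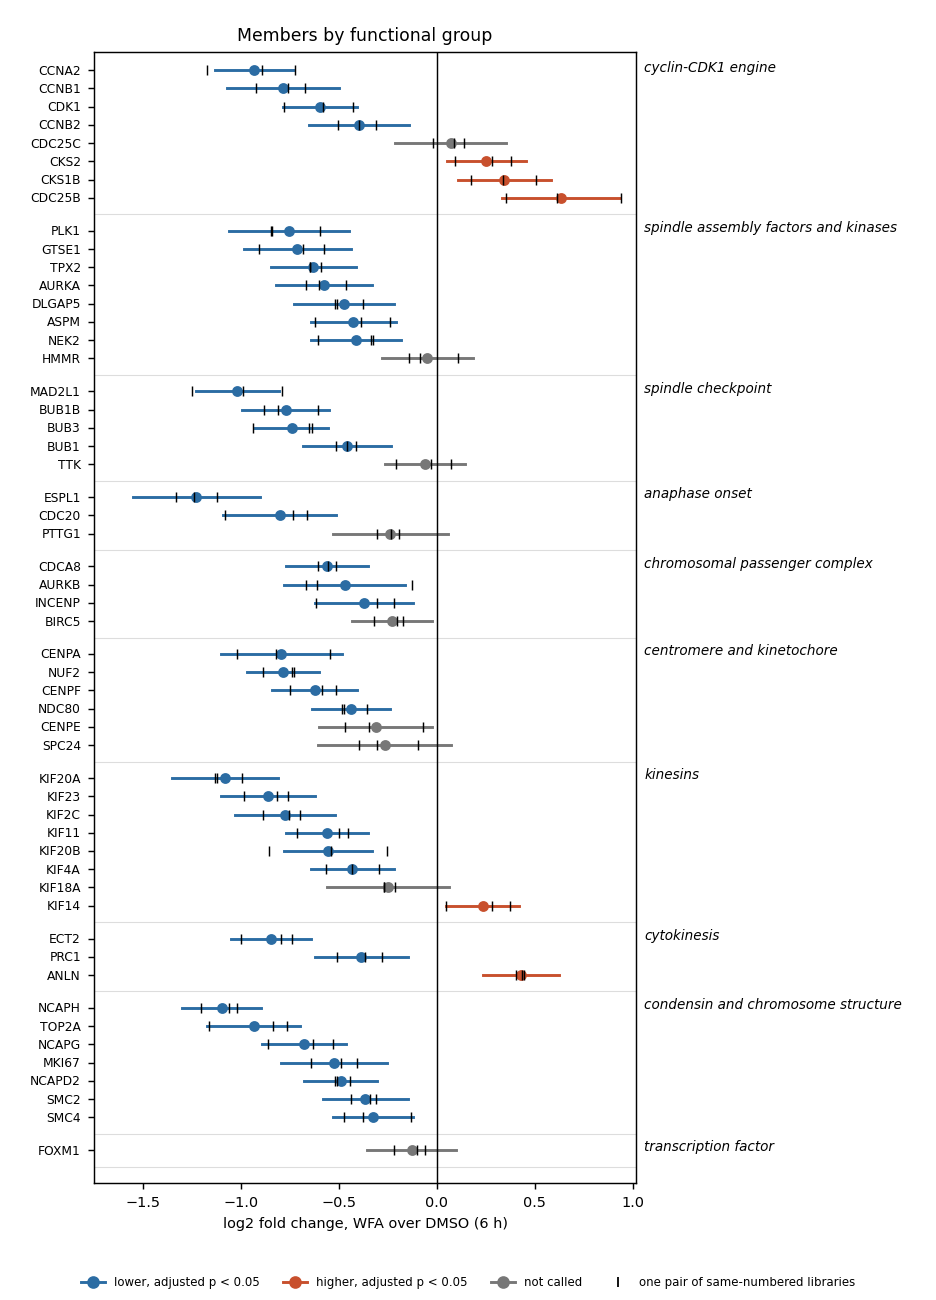
Log2 fold change of WFA over DMSO for each of the 53 tested members, grouped by function, with points for edgeR estimates, bars for 95% intervals and black ticks for the 3 pairs of same-numbered libraries. Blue marks the 39 members called lower, red the 5 called higher and grey the 9 not called, and red points occur among the CDK1 engine, kinesin and cytokinesis genes.

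Promoters of the members were examined because MuvB and NF-Y, which act on genes of late cell cycle phases, bind the cell cycle genes homology region (CHR) and CCAAT boxes. RefSeq promoters on GRCh38.p14, from 250 bases before to 50 after the transcription start, were matched for 48 of the 54 members, and AURKA, TPX2, BUB3, TTK, BIRC5 and FOXM1 had no entry. The letters TTTGAA (CHR) or CCAAT were searched on both strands. TTTGAA was present in 35 of 48 member promoters, or 72.9%, against 15.4% of all 27305 promoters of this length and 9.73% of those of tested genes. CCAAT was present in 37, or 77.1%, against 35.7% of all promoters and 36.5% of those of tested genes. Both were present in 28, or 58.3%, against 6.08% of all promoters and 4.03% of those of tested genes. In 2 members a TTTGAA and a CCAAT match shared a base, and in 2 members CCAAT matches overlapped each other. The core letters bound by MYB proteins (CAACGG or CAACTG, and the same with T first, TAACGG or TAACTG) were in 31.2% of member promoters and 25.9% of all. Among promoters of tested genes the share with these core letters was 23.8%. A match is a string of letters and does not show that a factor was bound.

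The 250 bases before the start are shown for 3 members that fell and 2 that rose, with the matches to TTTGAA in capitals, and those to CCAAT too, either motif on either strand. ESPL1 (chr12:53268049-53268298, plus strand), CDC20 (chr1:43358731-43358980, plus strand) and PLK1 (chr16:23678639-23678888, plus strand) fell, and CKS1B (chr1:154974431-154974680, plus strand) and ANLN (chr7:36389612-36389861, plus strand) rose.
ESPL1: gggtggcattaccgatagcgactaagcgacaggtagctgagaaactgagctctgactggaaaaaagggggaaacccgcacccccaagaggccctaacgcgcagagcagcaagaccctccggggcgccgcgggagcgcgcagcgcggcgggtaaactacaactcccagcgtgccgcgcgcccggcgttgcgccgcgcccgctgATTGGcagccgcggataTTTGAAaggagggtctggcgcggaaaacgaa
CDC20: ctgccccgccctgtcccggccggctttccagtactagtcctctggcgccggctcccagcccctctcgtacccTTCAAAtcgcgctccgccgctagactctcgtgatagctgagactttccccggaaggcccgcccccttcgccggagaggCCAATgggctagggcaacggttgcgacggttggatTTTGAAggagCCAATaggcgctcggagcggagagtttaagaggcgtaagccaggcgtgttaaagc
PLK1: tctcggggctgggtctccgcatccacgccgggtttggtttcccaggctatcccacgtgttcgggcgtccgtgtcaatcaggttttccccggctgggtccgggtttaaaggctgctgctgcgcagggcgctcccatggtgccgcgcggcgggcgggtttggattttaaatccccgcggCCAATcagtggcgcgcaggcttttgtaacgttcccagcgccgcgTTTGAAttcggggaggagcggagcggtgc
CKS1B: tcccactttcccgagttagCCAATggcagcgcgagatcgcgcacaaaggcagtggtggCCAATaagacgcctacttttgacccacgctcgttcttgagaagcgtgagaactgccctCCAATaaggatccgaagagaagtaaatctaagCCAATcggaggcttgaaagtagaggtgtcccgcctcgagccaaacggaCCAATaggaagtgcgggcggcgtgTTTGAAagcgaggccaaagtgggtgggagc
ANLN: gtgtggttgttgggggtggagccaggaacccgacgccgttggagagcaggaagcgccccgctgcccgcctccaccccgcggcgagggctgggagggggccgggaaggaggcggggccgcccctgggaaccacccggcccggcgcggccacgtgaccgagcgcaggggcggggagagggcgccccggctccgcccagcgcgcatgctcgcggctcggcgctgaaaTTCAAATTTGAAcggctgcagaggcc
In all 5 sequences a CHR match lies in the last 65 bases. ESPL1 and PLK1 each have 1 CCAAT match before it, and CDC20 has 1 on either side of its nearer CHR match. CKS1B carries 5 CCAAT matches and a CHR match, and 22 members that fell also had both motifs, while ANLN carries adjoining CHR matches on both strands and no CCAAT match.

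Over the members, CHR matches lay mostly just before the start, with 24 of 45 matches within 50 bases upstream. CCAAT matches lay farther out, at a median position of -74.5 against -28.0 for CHR matches. Of the CCAAT matches, 55 of 82 were within 100 bases upstream, a wider window than that used for CHR. Falls and rises both occurred with and without these letters, and whether the letters relate to the change was not tested. Over all tested genes, whatever their promoters, 24.7% were lower and 25.8% higher. Among tested members with a CHR match, 28 of 34 fell and 4 rose, with a median log2 fold change of -0.54, and among those without, 8 of 13 fell and 1 rose, with a median of -0.46. With a CCAAT match 29 of 36 fell, with a median of -0.54, and without 7 of 11, with a median of -0.36. With both motifs 22 of 27 fell and 3 rose (median -0.56), and with neither 1 of 4 fell and 1 rose (median -0.12). CDC25B had neither motif in this window, and neither had KIF2C, which fell, or CDC25C and CENPE, which were not called. Motifs at other transcription starts of these genes would not have been found. Only exact TTTGAA and CCAAT strings were searched, so a promoter without a match may hold an element with other letters.

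**Figure D3:**
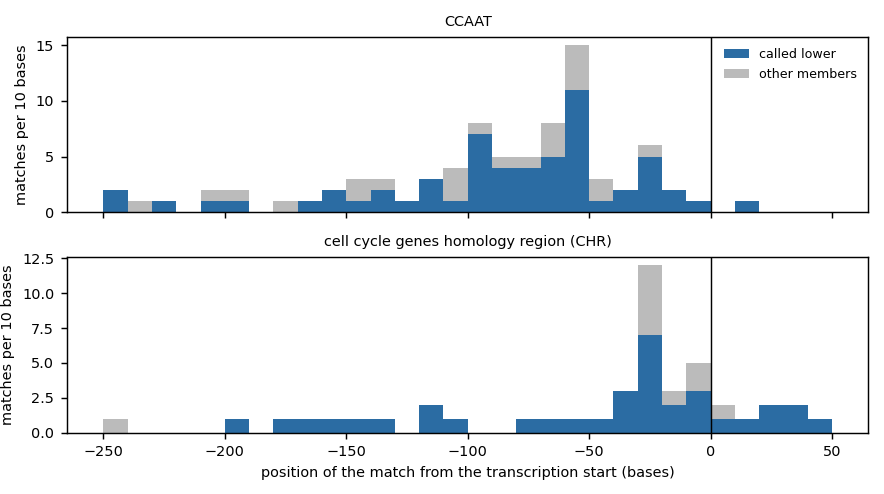
Positions of CCAAT (top) and TTTGAA (bottom) matches on either strand in 48 member promoters, as matches per 10 bases against distance from the transcription start, with members called lower in blue and the other members in grey. CHR matches gather in the 50 bases before the start, 24 of 45, and CCAAT matches farther upstream, at median positions of -28.0 and -74.5.

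Other genes of the same pathways were compared by lists written from general knowledge, whose counts stand against the 24.7% lower and 25.8% higher among all tested genes. Of 27 tested further kinetochore genes, 13 fell and 1 rose, with a median log2 fold change of -0.29. SKA3, which stabilizes microtubule attachment, fell by 0.71 (SE 0.10, edgeR adjusted p = 2.91e-05) and HJURP, the chaperone that deposits CENPA, by 0.65 on the log2 scale (SE 0.09, edgeR adjusted p = 4.27e-05). MIS12, a core kinetochore protein, rose by 0.37. Of 25 further spindle and centrosome genes, 14 fell and 2 rose, with a median of -0.34. The kinesin KIF15 fell by 0.69 on the log2 scale, whereas SPAG5, or astrin, which stabilizes attachments together with SKA proteins, had 120, 120 and 145 CPM with DMSO and 257, 258 and 284 with WFA. Its log2 fold change of 1.05 (SE 0.10, edgeR adjusted p = 4.73e-07) exceeded the rise of any member, and NUMA1, a spindle pole protein, rose by 0.22.

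Of 18 genes of the APC/C, its regulators and its E2 enzymes, 9 fell and 1 rose, with a median log2 fold change of -0.22. The falls include the gene of an APC/C inhibitor, FBXO5, named after its values were seen (log2 fold change -1.04). The scaffold ANAPC1 and ANAPC4 fell by 0.99 and 0.92 on the log2 scale (edgeR adjusted p = 8.45e-07 and 8.59e-07), and ANAPC16 rose by 0.45. Cohesin and its protectors had 4 of 13 genes lower, among them the ring subunits SMC3 and SMC1A with log2 fold changes of -0.52 and -0.39, and 1 higher, PDS5B with 0.32. The share lower, 30.8%, was near the 24.7% of all tested genes, and the median was -0.07. In condensin II, NCAPG2 and NCAPD3 fell by 0.37 and 0.27 on the log2 scale, and NCAPH2 rose by 0.31, opposite to NCAPH of condensin I.

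Regulators were also measured. Of 16 genes of MuvB, DREAM and NF-Y, 6 fell, or 37.5% against 24.7% of all tested genes, and 2 rose, with a median log2 fold change of -0.10. E2F5, a repressive E2F, had 4.85, 5.76 and 6.75 CPM with DMSO and 0.98, 2.17 and 2.23 with WFA (log2 fold change -1.69, SE 0.28, edgeR adjusted p = 0.000129), and the pocket protein gene RBL1 fell by 0.47. The MuvB subunits LIN37 and LIN52 rose by 0.65 and 0.48. MYBL2, which encodes B-MYB and was named after its values were seen, had 183 to 253 CPM with DMSO and 175 to 229 with WFA and was not called (log2 fold change -0.08, SE 0.12, edgeR adjusted p = 0.609). Also named after their values were seen, MYBL1, E2F4, NFYA and TFDP1 fell, with log2 fold changes of -0.65, -0.40, -0.31 and -0.29. The other NF-Y genes, NFYB and NFYC, were not called. Of 7 tested genes of CDK control and the DNA damage checkpoint, 4 fell and 2 rose. The inhibitory kinase gene WEE1 and the checkpoint kinase genes CHEK1 and CHEK2, named after their values were seen, had log2 fold changes of -0.56, -0.61 and -0.58. CDC25A, which encodes a phosphatase that activates CDKs, fell by 0.60 on the log2 scale. GADD45A rose by 0.37, and CDKN1A, the CDK inhibitor p21, had 15.4, 20.8 and 24.2 CPM with DMSO and 65.4, 68.1 and 108 with WFA, a log2 fold change of 2.01 (SE 0.19, edgeR adjusted p = 5.99e-07).

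Genes of S phase showed a similar share of falls, with 19 of 29 lower, 1 higher and a median log2 fold change of -0.47. UNG, a uracil-DNA glycosylase, and CCNE1, or cyclin E1, had the smallest p-values and log2 fold changes of -1.73 and -1.34, below that of any mitotic member. MCM5, a subunit of the replicative helicase, rose by 0.39. These genes summed to 4801, 4297 and 4222 CPM in DMSO replicates 1, 2 and 3 and to 3270, 2801 and 2751 CPM with WFA. Replicate 3 thus had the lowest S phase sum and the highest mitotic sum of its group, with DMSO and with WFA alike. TTTGAA was in 1 of 24 matched S phase promoters, or 4.17%, and CCAAT in 58.3%. No difference between the mitotic and the S phase list was tested.

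**Figure D4:**
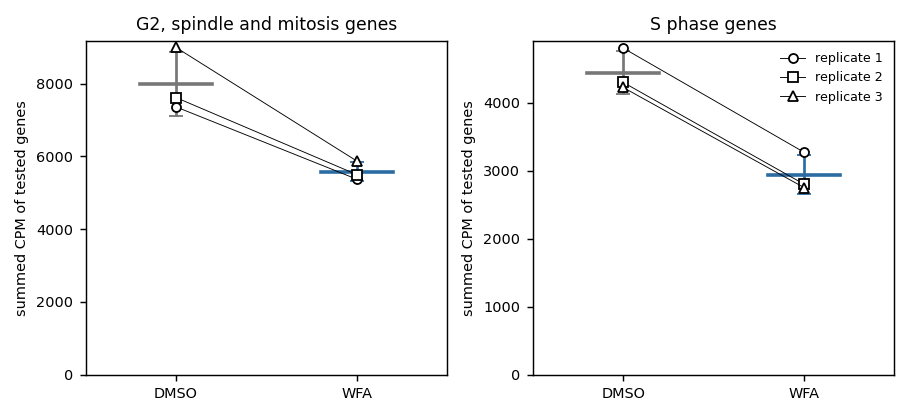
Summed CPM of the 53 tested members (left) and of 29 S phase genes (right) in each library, with lines joining same-numbered libraries, horizontal bars for group means and error bars for the SD (n = 3). The WFA libraries, at 5372 to 5872 and 2751 to 3270, lie below all DMSO libraries in both panels.

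**Figure D5:**
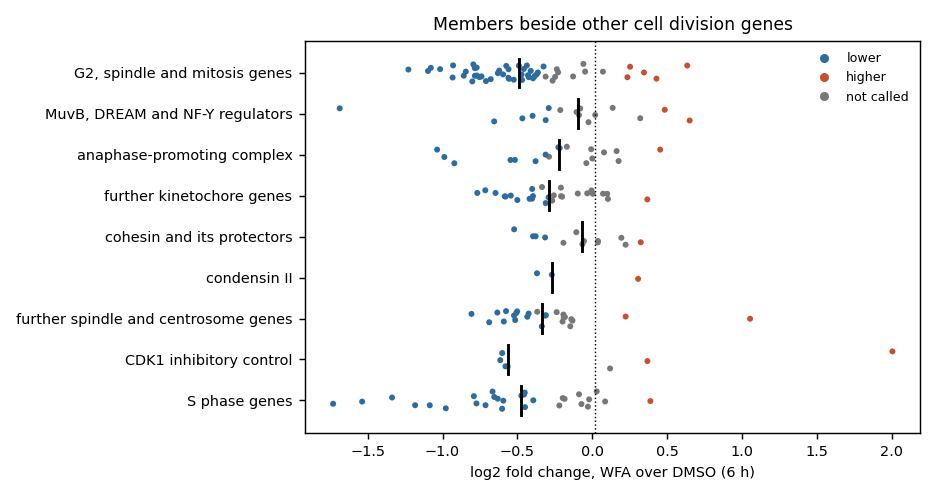
Log2 fold change of WFA over DMSO for each tested gene of the members and of 8 other lists of cell division genes, in blue where lower, red where higher and grey where not called in edgeR's test, with black bars for list medians and a dotted line at the median of all tested genes. The members' median of -0.49 is close to the -0.47 of the S phase genes, and CDKN1A at 2.01 is the highest point.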

How the data were processed

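The data are 6 THP1 libraries, in which the authors deposited raw counts of reads per gene symbol. Scaled counts and columns of a group comparison (fold changes, p-values and dispersions) stand beside them and were not used here. The submitters' processing notes name Trimmomatic, Bowtie2, Picard, featureCounts, DESeq2 and the build hg38. The annotation, the strand setting and the handling of multiply mapped reads are not given in the sources used here. Library preparation followed TruSeq RNA v2, which keeps no strand.

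Counts were analysed with edgeR 4.0.16 in R 4.3.3, using filterByExpr with a minimum count of 10, TMM normalization and the quasi-likelihood test without a block. Adjustment (Benjamini-Hochberg) ran over 12854 genes, and genes under 0.05 were called. Of the 26485 names, 28 look like dates and 2 are used more than once. The fits were tested on simulated data. Intervals are 95% intervals from the standard error and the moderated degrees of freedom. For 3 against 3 libraries the smallest exact permutation p is 0.1, so none is reported. Libraries of 1 group differed by more than sampling noise.

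Same-numbered libraries also share a number code in their labels and were taken as the same experiment, which the labels do not state. They deviated together, with correlations across genes of 0.22, 0.33 and 0.25 against -0.26 to 0.004 for other pairings. Deviations were taken from each group's mean, so positive values for same-numbered pairs push those of the other pairings down. The other pairings are therefore not an independent contrast. The members and lists were all chosen with earlier results of these data known. Within them, the genes given with full values are the 2 with the smallest p-value of each functional group, the one with the largest, those called higher and the largest fall. From each other list they are up to 2 with the smallest p-value and up to 2 called against its main direction. Further members are given by fold change, or with values where a call changed. Alternatives were the replicate block, total counts, DESeq2 size factors or upper-quartile factors in place of TMM, no filter, DESeq2 1.42.0 and each library left out. DESeq2 with the block was added after seeing the data. Exon lengths and overlaps come from GENCODE 29 and promoters from RefSeq.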

Additional observations from a re-analysis of the deposited data

How the results depend on the processing

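Of the 39 members called lower, 35 kept the call in each of 13 other fits, and no called member changed direction. The number called lower was between 35 and 43. The number called higher fell from 5 to 2 with total counts in place of TMM, to 3 without the low-count filter, and to 3 in DESeq2's Wald test with or without the replicate block, and was 2 to 4 with a library left out. With total counts the median of the members was -0.575 and that of the CDK1 engine -0.247, while the median of all tested genes moved from 0.02 to -0.06. With 1 library left out, medians ran from -0.27 to -0.0799 for the CDK1 engine (-0.0799 without DMSO replicate 3 and -0.0828 without WFA replicate 1), -0.62 to -0.458 for spindle assembly, -0.596 to -0.386 for kinetochore and -0.653 to -0.441 for condensin genes. The number lower was then 1 to 4 for the chromosomal passenger complex and 1 to 2 for cytokinesis, with 1 without DMSO replicate 3 in both. Where not named above, the cause was not tested. The replicate block called 43 members lower and 5 higher, adding PTTG1, BIRC5, CENPE and KIF18A and changing no other member's call. It leaves 2 residual degrees of freedom against 4 without it. The prior degrees of freedom set how far a gene's variance is drawn from all genes. Their median was 10.8 without the block and infinite with it. Where they are infinite, a gene's own spread does not enter the test, so the smaller p-values of this fit do not come from a stricter test. Depth limits SPC25, with at most 12 counts in a library.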
